A study of Mus musculus with 12 samples.

Results

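Genes that regulate the size and protein turnover of striated muscle were followed in the left atrium (LA): the ubiquitin ligase genes *Trim63*, *Trim55* and *Trim54*, the substrate adaptor genes *Fbxo32*, *Fbxo40*, *Klhl38* and *Asb2*, the secreted factor gene *Mstn*, and the transcription factor genes *Foxo1* and *Foxo3*. They were taken by gene symbol, 10 of the 54658 gene names in the count table and no measured value enters that rule, although earlier results of these data were known when the genes were proposed. The mice were αMHC-rtTA; tetO_NICD animals (iNICD), in which doxycycline makes cardiomyocytes produce the active intracellular domain of Notch1, and αMHC-rtTA littermate controls, which carried the transactivator without the NICD transgene. Both groups ate doxycycline chow for 3 weeks, beginning at an age of 2 to 3 months, and were studied without a washout. Each group held 6 mice with 1 LA library each, 4 females and 2 males among the controls and 3 females and 3 males among the iNICD mice. The αMHC promoter directs the transactivator to cardiomyocytes, the mice were of mixed genetic background, and the RNA came from whole atrial tissue, so that fewer cells of a type and less RNA per cell cannot be told apart.

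Muscle protein is degraded largely by the ubiquitin-proteasome system, in which a ubiquitin ligase chooses the protein that will be tagged. *Fbxo32* (atrogin-1) and *Trim63* (MuRF1) are the classic genes of muscle atrophy, and in wasting muscle they are switched on by the FoxO transcription factors when insulin and Akt signaling is low. The MuRF proteins sit on the sarcomere, F-box proteins bring substrates to cullin-1 ligases, Kelch proteins to cullin-3 ligases and ASB proteins to cullin-5 ligases, and myostatin is a secreted brake on muscle growth.

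Libraries held 21432632 to 27182038 counts, and 13541 genes passed the expression filter of a library-scaled count (CPM) above 1 in at least 6 libraries, among them all 10 genes described here. *Notch1*, from which the transgene derives, had 2335 to 3311 counts in the controls and 71187 to 107667 in the iNICD libraries, as labeled. Control replicate 5, a male, stood apart: 13.9% of tested genes lay at least 2-fold from the mean of its group, against 1.82% to 3.71% in the other 11 libraries, and results that rest on it are given with and without it. Among the 10 genes, 3 lay at least 2-fold below the other controls in that library and none did so in any of the other 11. Levels below are CPM normalized by the trimmed mean of M values (normalized CPM), and changes are log2 fold changes of iNICD over control with adjusted p values from edgeR's quasi-likelihood test after Benjamini-Hochberg correction over all tested genes.

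*Fbxo40* rose 2.50-fold in the iNICD LA, and no other gene of the group passed the test. The classic atrophy ligase genes did not pass it, with *Fbxo32* at 0.40 and *Trim63* at -0.29 on the log2 scale. A single gene is 10% of the 10, beside 4.12% of all tested genes that changed, 2.78% higher and 1.34% lower, and nothing is read from that share. The same gene alone passed without control replicate 5, where 5.9% of all tested genes changed, and *Trim63* passed beside it with DESeq2, where 7.82% did. The median log2 fold change was -0.07, against -0.01 over all tested genes, with 4 values above 0 and 6 below.

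The starts of *Fbxo40* and *Trim63* are shown because the first was the gene that changed and the second had iNICD levels that lay below every control. The sequences are RefSeq windows on GRCm38.p6 from 250 bases before to 50 bases after an annotated start, printed 5′ to 3′ on the strand of the gene, and such windows were found for 7 of the 10 genes. Capitals mark matches, on either strand, to a FoxO element (GTAAACA), an RBPJ element (TGGGAA), a glucocorticoid receptor element core (AGAACA) or an E-box (CAGCTG).
*Fbxo40*, upstream start, chr16:36990418-36990717, minus strand: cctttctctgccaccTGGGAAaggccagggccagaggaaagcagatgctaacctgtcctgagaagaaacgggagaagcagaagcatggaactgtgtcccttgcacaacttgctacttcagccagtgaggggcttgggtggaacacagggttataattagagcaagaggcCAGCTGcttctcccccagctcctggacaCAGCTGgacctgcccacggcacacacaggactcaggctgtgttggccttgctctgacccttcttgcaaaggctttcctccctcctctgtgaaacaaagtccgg
*Fbxo40*, downstream start, chr16:36979087-36979386, minus strand: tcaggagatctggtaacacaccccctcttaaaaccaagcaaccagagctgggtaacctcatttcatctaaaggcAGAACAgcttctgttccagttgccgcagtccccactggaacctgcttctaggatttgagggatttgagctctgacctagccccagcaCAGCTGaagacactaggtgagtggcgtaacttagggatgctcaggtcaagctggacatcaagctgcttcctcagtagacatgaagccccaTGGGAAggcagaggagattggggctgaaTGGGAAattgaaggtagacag
*Trim63*, chr4:134314870-134315169, plus strand: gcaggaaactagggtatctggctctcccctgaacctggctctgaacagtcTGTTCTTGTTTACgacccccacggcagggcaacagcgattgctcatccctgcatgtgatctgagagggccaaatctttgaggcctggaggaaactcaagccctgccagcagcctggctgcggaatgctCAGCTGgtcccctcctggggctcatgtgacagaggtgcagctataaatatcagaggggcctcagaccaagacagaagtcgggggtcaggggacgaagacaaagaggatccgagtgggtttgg

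The *Trim63* window held a FoxO element at bases -194 to -188 from the start. It directly followed a glucocorticoid receptor core at -200 to -195, and an E-box lay at -72 to -67. Neither *Fbxo40* window held the FoxO letters. An RBPJ element, the sequence bound by the DNA partner of NICD, stood at -235 to -230 of the upstream start and at 2 to 7 and 30 to 35 of the downstream start. The *Trim54* window, not printed, also held RBPJ letters, at -192 to -187 and -83 to -78, and the log2 fold change of *Trim54* was -0.14. These short words are common: of 32851 windows of the same length, 25.6% held the RBPJ letters, 19% the glucocorticoid receptor core, 16.3% the E-box and 3.65% the FoxO element. A match is only a description of the letters, and binding was not measured here.

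*Fbxo40* encodes a muscle F-box protein known for directing the insulin receptor substrate Irs1 to degradation. The gene lies on the minus strand at chr16:36963460-36990467 (mm10). Its level in the controls was 130.5 at the lowest, 167 at the median and 240 at the highest, and in the iNICD libraries 386, 424 and 495. All 6 iNICD values stood above the highest control, as did those of 2.58% of all tested genes. In log2 terms the change was 1.32 ± 0.12 (SE, 95% interval 1.06 to 1.59, adjusted p = 3.39e-05), and the exact two-sided permutation p of 0.00216 is the smallest that 6 against 6 mice can give. Without control replicate 5, which had the highest control level, the change was 1.44 ± 0.09. It ranked 38 among all tested genes by p value.

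None of the 3 nearest tested genes on each side of *Fbxo40* passed the test. *Iqcb1*, *Golgb1*, *Hcls1*, *Gtf2e1*, *Rabl3* and *Ndufb4* had log2 fold changes between -0.20 and 0.07, with adjusted p values of 0.266 to 0.880. They are not all close by: *Fbxo40* ends at chr16:36990467, and *Gtf2e1*, the first tested gene beyond that end, begins at chr16:37509790. *Irs1* had 50.7 ± 6.22 normalized CPM in the controls and 54.6 ± 8.38 in the iNICD mice (SD, n = 6 each; log2 fold change 0.11, edgeR adjusted p = 0.653). *Cul1* and *Skp1a*, which encode the scaffold and the linker that hold F-box proteins, gave 0.06 and -0.06 with adjusted p values of 0.568 and 0.582.

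**Figure D1:**
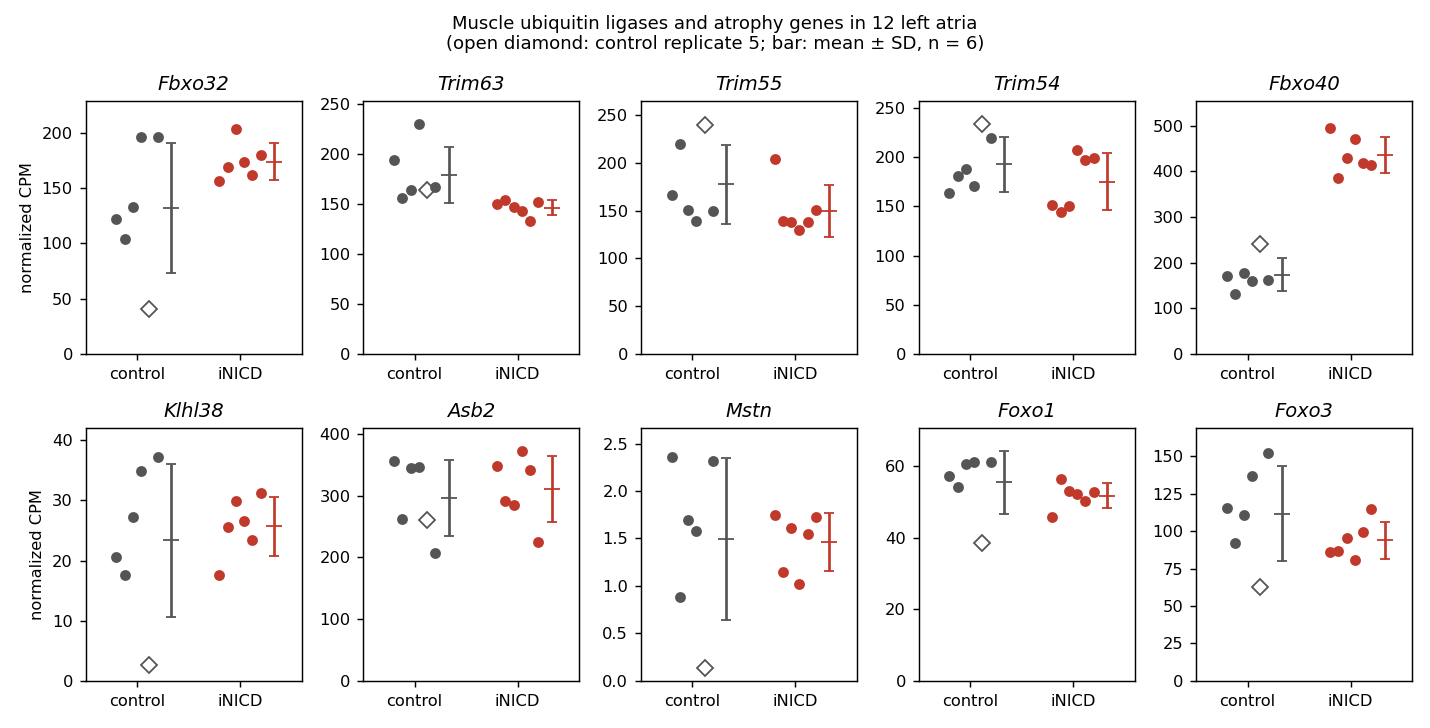
Normalized CPM of each of the 10 genes (y axes, linear, from 0) in 6 control (grey) and 6 iNICD (red) left atria, 1 point per library, with bars for mean ± SD and an open diamond for control replicate 5. *Fbxo40* lay at 130.5 to 240 in the controls and 386 to 495 in the iNICD libraries, while *Fbxo32*, *Klhl38*, *Mstn*, *Foxo1* and *Foxo3* each had their lowest control value in replicate 5.

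*Fbxo32* (chr15:58175879-58214932, minus strand) encodes atrogin-1, an F-box protein known to tag calcineurin in heart and to rise in wasting skeletal muscle. Its control levels ran from 41.0 through a median of 127 to 196, and its iNICD levels from 156 through 171 to 204. The groups overlapped, the spread among controls was wide (SD 59.0 against 16.8 in the iNICD mice), and 41.0 was control replicate 5. A log2 fold change of 0.40 ± 0.28 (SE) did not pass the test (adjusted p = 0.492), and without control replicate 5 it was 0.21 ± 0.16 (adjusted p = 0.530). Its 95% interval with all libraries, -0.21 to 1.00, leaves room for a 2-fold rise, and without control replicate 5 the interval was -0.13 to 0.56.

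*Klhl38* (chr15:58314573-58324169), a Kelch protein gene whose RNA is known to follow muscle wasting and disuse, showed the same control library at the bottom of a wide range. The controls had 2.67, 24.0 and 37.3 normalized CPM at the lowest, median and highest, and the iNICD mice 17.6, 26.1 and 31.3. The groups overlapped almost fully. Its log2 fold change was 0.14 ± 0.41 (adjusted p = 0.893) and turned to -0.09 ± 0.20 without control replicate 5. *Klhl38* lies 99.6 kb from *Fbxo32* on chromosome 15, both on the minus strand, and both overlap exons of the antisense gene *Gm15943*, by 1446 and 186 bases. That antisense gene had 1 to 10 counts per library, and the antisense genes that share exon bases with *Trim54* (*Gm15469*) and *Foxo1* (*Gm20402*) had at most 8 and 1. Whether the counting used strand is not given in the sources used here.

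*Asb2* (chr12:103321142-103356001, minus strand) encodes an adaptor known for the degradation of filamins. It had 208, 304 and 356 normalized CPM in the controls and 225.5, 317 and 372 in the iNICD mice. The groups overlapped throughout, and the log2 fold change was 0.07 ± 0.15 (adjusted p = 0.858), with a 95% interval of -0.26 to 0.39. Of its substrates, *Flna* had a log2 fold change of -0.28 and *Flnc* of -0.99, neither past the test, and for *Flnc* the level of control replicate 5 was 6722 normalized CPM where the other controls had 705 to 2740.

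The MuRF genes all had lower means in the iNICD LA, and none passed the test. *Trim63* (chr4:134315120-134329629, plus strand) encodes MuRF1, a RING ligase of the sarcomere that tags myosin heavy chain and other thick filament proteins. Its control levels were 157, 166 and 230 at the lowest, median and highest, and its iNICD levels 133, 149 and 154. All 6 iNICD libraries lay below all 6 controls, which made it, with *Fbxo40*, 1 of 2 genes here whose groups did not overlap. Such separation was seen for 3.83% of all tested genes, for 1.25% with iNICD lower, and for 5.41% (and the same number of genes here, 2) without control replicate 5. The *Trim63* log2 fold change was -0.29 ± 0.09 (95% interval -0.49 to -0.10), with an adjusted p of 0.101 by edgeR and 0.0316 by DESeq2. The exact two-sided permutation p for this gene alone, 0.00216, unadjusted for the number of genes, follows from that separation and adds nothing to it.

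*Trim55* (MuRF2; chr3:19644474-19692421, plus strand) had 139, 158 and 239 normalized CPM in the controls and 130, 139 and 204 in the iNICD mice. The groups overlapped, with 4 iNICD libraries below every control and iNICD replicate 1 alone at 204. A log2 fold change of -0.24 ± 0.15 resulted (adjusted p = 0.441). It was -0.14 ± 0.14 without control replicate 5, the highest control (adjusted p = 0.655), and -0.07 in females alone and -0.49 in males alone (adjusted p = 0.876 and 0.775). *Trim54* (MuRF3; chr5:31116712-31137630, plus strand), which binds microtubules and the sarcomere, had 164, 184 and 234 in the controls and 145, 174 and 207 in the iNICD mice. Here 3 iNICD libraries, the females, lay below every control. Across sexes the log2 fold change was -0.14 ± 0.12 (adjusted p = 0.586), and -0.08 ± 0.11 without control replicate 5, the highest control (adjusted p = 0.782).

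*Trim54* was higher in males than in females, a comparison chosen after its values had been seen. Control females had 164 to 188 normalized CPM and control males 219 and 234. The iNICD females had 145 to 151 and the iNICD males 197 to 207, so that the sexes did not overlap within either genotype. With genotype in the model, males were higher by 0.40 ± 0.05 on the log2 scale (edgeR adjusted p = 0.00513, rank 11 of all tested genes by p value), and by 0.39 without control replicate 5 (adjusted p = 0.00880). Of all tested genes, 0.288% passed this test, and 3.19% separated the sexes in the same direction within both genotypes.

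With sex as a covariate, *Trim54* was lower in the iNICD LA by a log2 fold change of -0.21 ± 0.05 (edgeR adjusted p = 0.0328), and by -0.20 when control replicate 5 was also left out (adjusted p = 0.0409). In that model 4.96% of all tested genes changed. The other 9 genes showed no sex effect past the test (adjusted p 0.570 to 0.992). No gene of the 10 had a sex by genotype interaction (adjusted p 0.916 to 0.972, with no unadjusted p below 0.05), and this test also called 0 of all tested genes, with 501 at an unadjusted p below 0.05 and 1 gene by DESeq2. *Fbxo40* rose by 1.45 in females (adjusted p = 0.000946), and in males, where 3 iNICD mice stood against 2 controls, its log2 fold change was 1.09 (adjusted p = 0.404). The male iNICD levels of 413 to 472 lay above the male controls at 163 and 240.

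**Figure D2:**
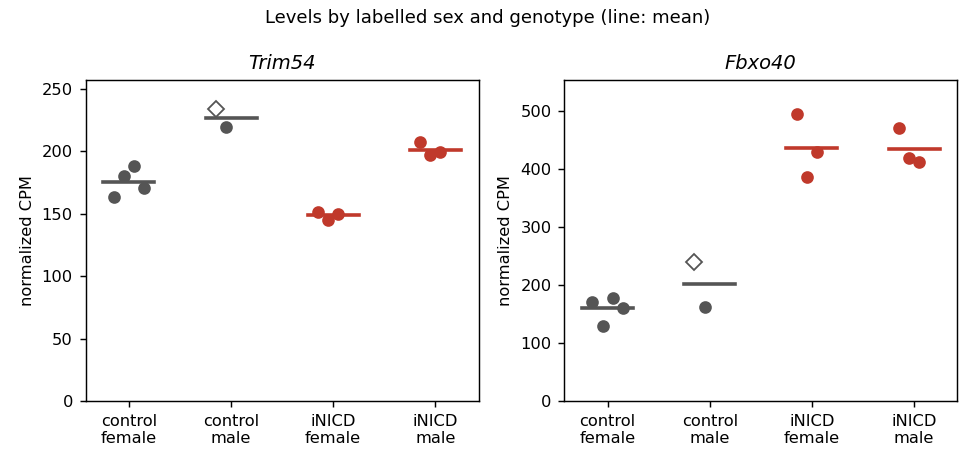
Normalized CPM of *Trim54* and *Fbxo40* (y axes, linear, from 0) in control (grey) and iNICD (red) libraries split by labeled sex, with a line at the mean of each set and an open diamond for control replicate 5. *Trim54* separated the sexes within each genotype (145 to 151 in iNICD females, 197 to 207 in iNICD males), while *Fbxo40* separated the genotypes within each sex.

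*Mstn*, the myostatin gene (chr1:53061640-53068079, plus strand), was close to the limit of detection, with 3 to 57 counts per library. Its level was 0.140, 1.64 and 2.36 normalized CPM in the controls and 1.02, 1.58 and 1.75 in the iNICD mice, and the groups overlapped. At this depth its log2 fold change of -0.03 ± 0.42 (adjusted p = 0.981) had a 95% interval of -0.95 to 0.89, and it was -0.26 ± 0.25 without control replicate 5.

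*Foxo1* and *Foxo3*, the transcription factors upstream of *Fbxo32* and *Trim63* in wasting muscle, did not pass the test either. *Foxo1* (chr3:52268336-52353221, plus strand) had 38.4, 58.8 and 61.2 normalized CPM in the controls and 45.7, 52.5 and 56.4 in the iNICD mice. With 38.4 being control replicate 5, the iNICD levels lay inside the control range. Without that library, 5 of 6 iNICD values lay below every remaining control, and the log2 fold change moved from -0.10 ± 0.10 (adjusted p = 0.658) to -0.19 ± 0.06 (adjusted p = 0.105). *Foxo3* (chr10:42181841-42276755, minus strand) had 62.8, 113 and 152 in the controls and 80.6, 91.2 and 115 in the iNICD mice. Its log2 fold change was -0.25 ± 0.18 (adjusted p = 0.496) with all libraries and -0.37 ± 0.13 (adjusted p = 0.118) without control replicate 5, and the groups overlapped in both cases. Without control replicate 6 it was -0.14 ± 0.17 (adjusted p = 0.683). FoxO activity is set mainly by phosphorylation and location, which RNA counts do not measure.

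**Figure D3:**
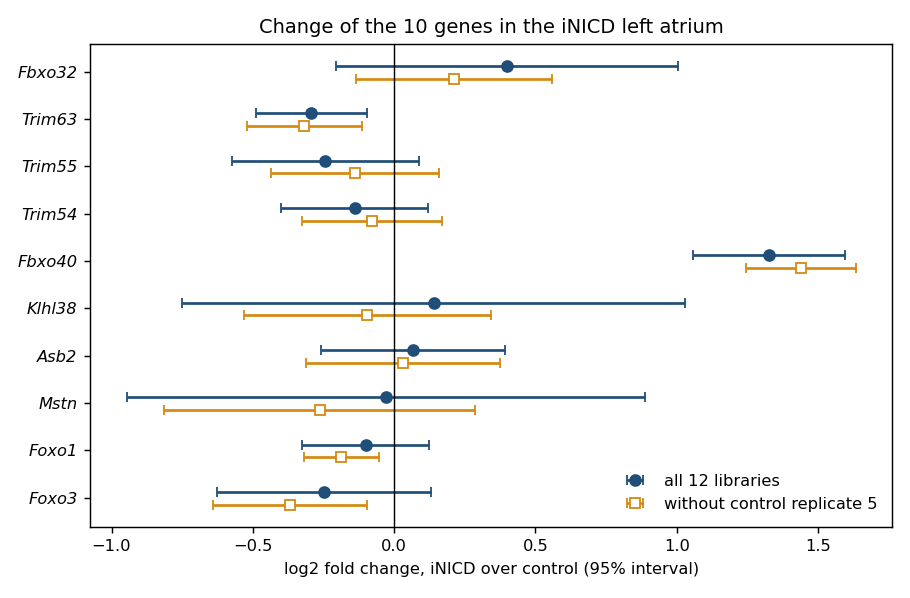
Log2 fold change of iNICD over control (x axis) for each gene with its 95% interval, from edgeR with all 12 libraries (filled circles) and without control replicate 5 (open squares). Only *Fbxo40*, at 1.32 and 1.44, passed the test in either fit, and the intervals of *Fbxo32*, *Klhl38* and *Mstn* were the widest with all libraries.

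Divided by gene length, *Trim54* stood highest and *Mstn* lowest in both groups. In the controls *Trim54* had 134 ± 19.4 normalized CPM per kb (SD, n = 6), *Asb2* 83.8 ± 17.3, *Trim55* 66.7 ± 15.7, *Trim63* 63.1 ± 9.81 and *Fbxo40* 31.5 ± 6.60. Below them were *Fbxo32* at 18.9 ± 8.45, *Foxo3* at 14.7 ± 4.20, *Klhl38* at 10.6 ± 5.75, *Foxo1* at 6.39 ± 1.01 and *Mstn* at 0.553 ± 0.317 per kb. The ranges of neighbors in this order overlapped except between *Trim54* and *Asb2*, *Trim63* and *Fbxo40*, and *Foxo1* and *Mstn*. The overlap of *Klhl38* with *Foxo1* rested on control replicate 5, without which they had 7.92 to 16.8 and 6.25 to 7.06 per kb. In the iNICD LA *Fbxo40* ranked 3 at 79.0 ± 7.30 per kb, with a range that overlapped those of *Asb2* above and *Trim55* below it. The ratio of *Fbxo40* to *Fbxo32* per kb was 1.04 to 1.78 in controls other than replicate 5, which had 7.41, and 2.66 to 4.01 in the iNICD mice. With all libraries the groups were not separated by the exact two-sided permutation test (p = 0.106, or 0.636 after Benjamini-Hochberg adjustment over 6 ratios).

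Levels of several of the genes varied together from mouse to mouse. Correlations were computed on log2 levels as deviations from the group mean over 12 libraries, with 100000 permutations within groups for each of 45 pairs. Of these, 8 pairs passed Benjamini-Hochberg adjustment by both r and rho. The share of all pairs of tested genes that would pass was not computed, so nothing is read from this count. *Fbxo32* and *Klhl38* gave r = 0.98 and rho = 0.96 (permutation p = 2e-05 and 4e-05, adjusted 0.0009 and 0.0018). With *Foxo1* the r of *Fbxo32* was 0.92 and that of *Klhl38* 0.96, and with *Foxo3* they were 0.92 and 0.90 (adjusted permutation p 0.0075 to 0.0104 by r). *Trim55* ran the other way, with r = -0.76 to *Fbxo32*, -0.77 to *Klhl38* and -0.82 to *Foxo1* (adjusted permutation p 0.0075 by r).

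The points share libraries, and control replicate 5 lay at the end of most relations. Without it, *Fbxo32* and *Klhl38* gave r = 0.90, and the 8 pairs had values of r between 0.60 and 0.90 in size. Leaving out the 2 libraries farthest from the median of the first gene gave r = 0.88 for *Fbxo32* and *Klhl38* and 0.66 for *Fbxo32* and *Foxo1*. The relation of *Fbxo32* with *Mstn* rested on that library, with r = 0.88 over all libraries and 0.41 without it. *Fbxo40*, the gene that changed, was in none of the 8 pairs, and its r with *Fbxo32* went from -0.61 to 0.22 when control replicate 5 was left out.

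**Figure D4:**
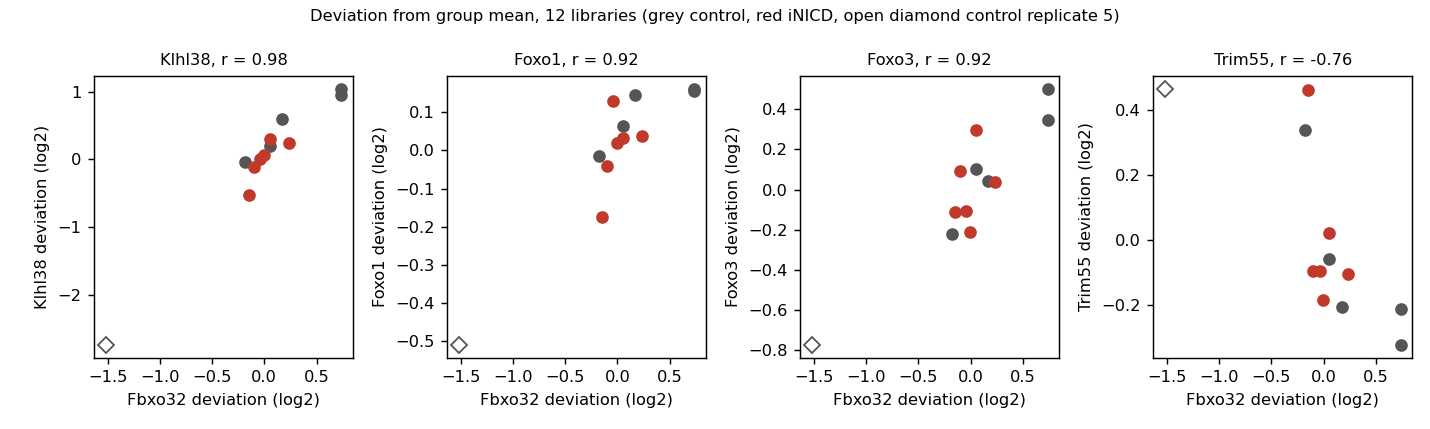
Deviation from the group mean (log2) of *Klhl38*, *Foxo1*, *Foxo3* and *Trim55* (y axes) against that of *Fbxo32* (x axes) in 6 control (grey) and 6 iNICD (red) libraries, with control replicate 5 as an open diamond. Pearson's r over all 12 libraries was 0.98, 0.92, 0.92 and -0.76, and the open diamond lies at the far left of each panel.

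Over all tested genes, those whose deviations ranked most like each of the 10 were listed by Spearman's rho over 12 libraries, as a description. For *Fbxo32* they were *4632428C04Rik* at 0.98, *Slc25a42* at 0.97 and *Klhl38* itself at 0.96, and without control replicate 5 these values were 0.88, 0.68 and 0.95. For *Foxo1* they were *Ebpl* at 0.95, *Bcl2l11*, the gene of the death factor Bim, at 0.94 and *Msrb2* at 0.94, and without that library 0.86, 0.97 and 0.91. *Foxo3* ranked with *1810043G02Rik*, *Maf1* and *Osbp2*, each at 0.99 (0.95, 0.93 and 0.97 without it), and *Klhl38* with *Ap5z1* at 0.97, *Fbxo32* at 0.96 and *Cdkn1b* at 0.96 (0.90, 0.95 and 0.83 without it). The leading genes of the others were *Malat1* at 0.90 for *Fbxo40*, *Irak4* at 0.96 for *Trim55*, *Tmem161a* at 0.94 for *Trim54* and *Pln* at 0.96 for *Mstn*, with 0.81, 0.93, 0.87 and 0.70 without control replicate 5, when none of them led. *Clvs1* for *Trim63* and *Clasp1* for *Asb2*, both at 0.97, led with and without it.

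Within control replicate 5 the genes split. *Mstn* was 12.6-fold, *Klhl38* 10.3-fold and *Fbxo32* 3.66-fold below the mean of the other controls, while 9.27% of all tested genes were at least 2-fold below in this library. The *Mstn* ratio rests on 3 counts, and its 95% exact Poisson interval, for counting error only, was 4.31- to 61.0-fold. *Foxo3* was 1.93-fold and *Foxo1* 1.53-fold below. *Fbxo40* was 1.50-fold, *Trim55* 1.45-fold and *Trim54* 1.27-fold above. The library was the lowest control for 5 of the 10 genes and the highest for 3, where 35.8% of all tested genes were lowest and 32.6% highest in it. These are values of 1 mouse, with no replicate and no test. Other genes known as FoxO or stress targets were above or below the other controls there: *Pdk4* stood at 2497 (other controls 174.5 to 512), *Fkbp5* at 123 (19.6 to 37.5), *Cdkn1a* at 240 (9.86 to 72.2) and *Mt2* at 297 normalized CPM (3.06 to 6.52), whereas *Ccng2* stood at 9.64 (19.6 to 40.3) and *Sesn1* at 49.8 (82.4 to 129). Of the 25 FoxO target and stress genes tested, 6 were at least 2-fold above the mean of the other controls there and 3 at least 2-fold below. Of all tested genes, 13.9% were that far away in either direction.

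**Figure D5:**
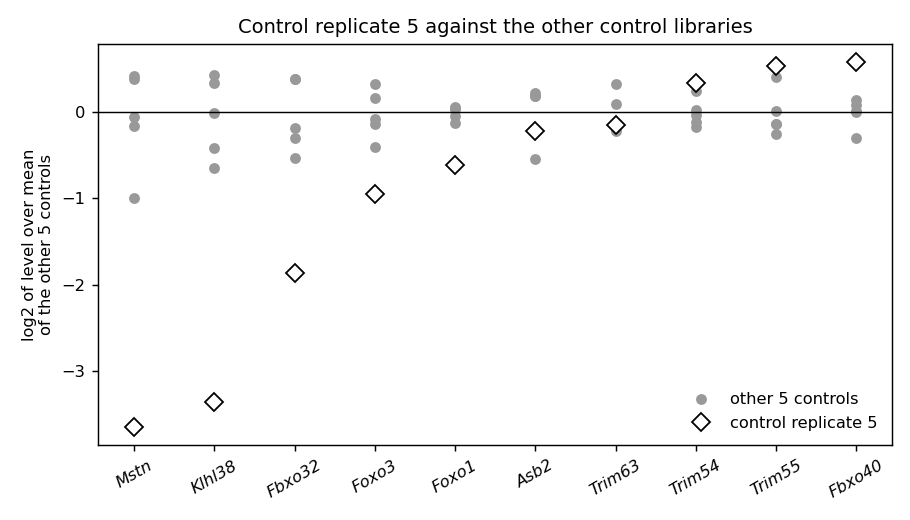
Log2 of each control library's level over the mean of the 5 controls other than replicate 5 (y axis) for the 10 genes (x axis), with replicate 5 as open diamonds and the other controls as grey points. *Mstn*, *Klhl38* and *Fbxo32* lie lowest in replicate 5, and *Trim54*, *Trim55* and *Fbxo40* highest.

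In the wider pathway, of 263 tested genes in 12 lists, 18 changed, 8 up and 10 down, which is 6.84% of them beside 4.12% of all tested genes, and the median log2 fold change was -0.03. Of the 18, 11 passed in each of the 12 fits that left out a single library, and *Klhl30*, *Kbtbd12*, *Ctsd*, *Akt2*, *Pik3ca*, *Smad7* and *Myl7* missed the threshold in 5 to 9 of those fits. Among 23 other muscle ligases and adaptors, the F-box gene *Fbxo9* rose by 0.59 ± 0.12 (adjusted p = 0.0159) and *Trim72*, a gene of membrane repair, fell by 0.49 ± 0.10 on the log2 scale (adjusted p = 0.0161). Of the 15 other ASB genes tested, *Asb11* fell from 48.4 to 27.3 normalized CPM (log2 fold change -0.82, adjusted p = 0.0118). *Asb14* had a log2 fold change of -1.04 ± 0.34 (adjusted p = 0.117) with all libraries and fell by 1.23 without control replicate 5 (adjusted p = 0.0129), and DESeq2 called *Asb11*, *Asb14* and *Asb12*, the last higher by 0.52, as it did 7.82% of all tested genes. Of 12 Kelch and BTB adaptors, *Klhl30* rose by 0.63 and *Kbtbd12* fell by 0.62 on the log2 scale (adjusted p = 0.0300 and 0.0327). In these 3 lists only *Fbxo9* and *Klhl30* rose by edgeR, and no F-box gene in them other than *Fbxo9* passed the test.

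Of 91 tested genes in 4 lists, of the cullin-RING core, the proteasome, ubiquitin with its E2 and deubiquitinating enzymes, and autophagy with the lysosome, 4 changed, or 4.4%, beside 4.12% of all tested genes. None of 14 cullin-RING core genes passed edgeR's test, 1 had an unadjusted p below 0.05, as did 17.4% of all tested genes, and DESeq2 called 0. Of 32 proteasome subunit genes only *Psmb7* changed, up by 0.52 ± 0.07 (adjusted p = 0.000808), and the median of the list was -0.07. Among 21 ubiquitin, E2 and deubiquitinase genes, the E2 enzyme genes *Ube2d1* and *Ube2h* rose by 0.56 and 0.36 (adjusted p = 0.00271 and 0.0116). Of 24 genes of autophagy and the lysosome, the other route of protein breakdown, *Ctsd*, the gene of cathepsin D, rose by 0.30 ± 0.07 (adjusted p = 0.0327).

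Upstream of FoxO, 2 of 25 insulin, PI3K and Akt genes changed, or 4 with DESeq2, where 4.12% and 7.82% of all tested genes did, and nothing is read from the count. *Akt2* fell from 104 ± 10.9 to 81.7 ± 5.83 normalized CPM (SD, n = 6 each; log2 fold change -0.35, edgeR adjusted p = 0.0246), and *Pik3ca* rose by 0.22 ± 0.05 (adjusted p = 0.0337). Downstream, none of 25 other FoxO target and stress atrophy genes passed edgeR's test. Of those, 4 had an unadjusted p below 0.05, where 17.4% of all tested genes did, and DESeq2 called 1. In the myostatin and activin list, *Inha* fell by 0.54 and the inhibitory Smad gene *Smad7* by 0.82 on the log2 scale (adjusted p = 0.0178 and 0.0484) among 22 tested genes.

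Among 21 muscle transcription factor genes, *Tbx5* fell from 428 ± 82.4 to 268 ± 24.8 normalized CPM (SD, n = 6 each; log2 fold change -0.67, edgeR adjusted p = 0.00494). *Srf* had a log2 fold change of -0.86 ± 0.24 (adjusted p = 0.0629) and fell by 0.59 without control replicate 5 (adjusted p = 0.0401). In this list 11 of 21 genes had an unadjusted p below 0.05, 1 passed edgeR's test and DESeq2 called 3, beside 17.4%, 4.12% and 7.82% of all tested genes, and the median log2 fold change of the list was 0.00. Of 30 tested binding partners and substrates of the ligases, *Mybpc3* rose by 0.89, and *Myl4*, *Myl7* and *Tnnt2* fell by 0.75, 0.54 and 0.44 on the log2 scale (adjusted p = 0.000443, 0.000320, 0.0367 and 0.0153). These 4 are beside 4.12% of all tested genes, and the median log2 fold change of the list was -0.11.

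Markers of cell types were set beside these values. The summed level of 10 cardiomyocyte markers was 87529 to 110677 normalized CPM in the controls and 60736 to 72798 in the iNICD mice, lower by a log2 difference of -0.52 (exact two-sided permutation p = 0.00216, 0.0260 after Benjamini-Hochberg adjustment over 12 lists). The 4 of them that changed, all lower, were *Nppa*, *Sln*, *Myl7* and *Tnnt2*, while *Myh6*, the most abundant, had 33643 in the controls and 32890 in the iNICD mice. The part of this shift in the levels of the ligase genes was not tested. The 12 skeletal muscle markers, relevant because the ligases are also skeletal muscle genes, summed to 8.53 to 31.1 in the controls and 13.7 to 36.6 in the iNICD mice (log2 difference 0.54, adjusted exact permutation p = 0.338). The value of 31.1 was control replicate 5, and the other controls had 8.53 to 16.2. Without that library the log2 difference was 0.78 (exact permutation p = 0.0455), and the mean of the log2 levels of these markers differed by 0.43 with all libraries (exact permutation p = 0.00433), both before adjustment over lists. Of these, *Tnni2* rose from 1.11 to 3.53 normalized CPM (log2 fold change 1.68, edgeR adjusted p = 0.0312). No marker of the 12 lists was at 0 in every library, and the 11 lists other than cardiomyocyte had adjusted exact permutation p values of 0.143 to 0.543.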

How the data were processed

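Libraries were prepared by the authors from ribosome-depleted LA RNA, and single-end reads were counted per gene. The deposited values are raw read counts per gene name, one column per LA, with a deposited length in bases per name as the other unit. The submitters' processing notes name cutadapt, STAR 2.4.2a, featureCounts and mm10, while the paper's supplement also describes a TopHat2 and HTSeq route. Which route made the table, and its strand setting, are not given in the sources used here. The table has no column outside the 12 samples.

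Counts were filtered (CPM above 1 in at least 6 libraries), normalized by TMM and tested with edgeR 4.0.16 quasi-likelihood fits in R 4.3.3, 6 iNICD against 6 control mice, with Benjamini-Hochberg adjustment over 13541 genes at 0.05. DESeq2 1.42.0, edgeR's exact test, other scalings and filters, sex as a covariate, each sex alone, replicate blocks and leaving out each library were alternatives. The test of males against females, sex as a covariate with control replicate 5 also left out, the neighbors of *Fbxo40* and the levels of control replicate 5 relative to the other controls were added after the data were seen. The fits were tested on simulated data. Positions are from GENCODE M21 on GRCm38, where exon unions equaled the deposited length for all 10 genes. Levels per kb used that length.

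The 10 genes, the pathway lists and the tests were chosen with earlier results of these data known. Named pathway genes are up to 4 changed genes per direction and list, named markers the most abundant and any changed ones, and genes most like each of the 10 are the 3 with the highest Spearman correlation. Genes of other lists given for control replicate 5 and *Irs1*, *Cul1*, *Asb12*, *Asb14*, *Srf*, *Skp1a*, *Flna* and *Flnc* were named outside this rule, after their values were seen. Replicates differed by far more than counting noise, with a chi-square per gene of at least 16.7 between any pair of libraries. Samples are separate mice by the labels.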

Additional observations from a re-analysis of the deposited data

Results flagged for a closer look

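Among 20 groups of 6 values (the 10 genes in each genotype), Dixon's ratio exceeded its 95% critical value of 0.625 in 2, where chance gives 1. *Trim55* in iNICD replicate 1 was 203.8 normalized CPM, and the other iNICD libraries lay between 130 and 150.3 (ratio 0.727). *Foxo1* in control replicate 5 was 38.4 normalized CPM, and the remaining controls lay between 54.1 and 61.2 (ratio 0.690).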

How the results depend on the processing

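*Fbxo40* kept its direction in every alternative run and passed the test in all except the fit of males alone (1.09, adjusted p = 0.404, edgeR), and leaving out single libraries gave 1.25 to 1.44. *Trim63* passed with DESeq2 alone (-0.30, adjusted p = 0.0316) and lay between -0.34 and -0.21 when single libraries were left out. *Trim54* passed with sex as a covariate (-0.21) and with sex as a covariate and control replicate 5 left out (-0.20). Values that turned in sign had not passed the test in either setting: *Mstn* with sex as a covariate (0.017), with a replicate block (0.13), with a block on the numbers of the sample descriptions (0.16) and in males (0.21); *Klhl38* in females (-0.040) and with sex as a covariate without control replicate 5 (-0.17); *Asb2* in females (-0.087); *Foxo1* in males (0.044). Leaving out single libraries gave -0.26 to 0.15 for *Mstn*, -0.095 to 0.32 for *Klhl38* and -0.018 to 0.14 for *Asb2*. The causes were not tested. Over all genes, 377 were higher and 181 lower. DESeq2 gave 615 and 444, edgeR's exact test 279 lower, males alone 8 and 0, and leaving out single libraries 273 to 495 and 92 to 304, the last without control replicate 5. In the pathway lists 8 were higher and 10 lower, with 5 to 9 and 6 to 12 when single libraries were left out, 12 without control replicate 5. Higher pathway genes numbered 4 with the description block and in females, and males alone gave 0 in both directions. No gene of the 10 had a sex by genotype interaction except without control replicate 6, where control replicate 5 was the only male control and 5 of the 10 passed (*Fbxo32*, *Klhl38*, *Mstn*, *Foxo1* and *Foxo3*), as did 12.1% of all tested genes. The mean of log2 marker levels turned smooth muscle to -0.057 and brought skeletal muscle (0.43) and Schwann and neuronal markers (0.22) past the threshold (exact permutation p = 0.00433 each, unadjusted), as did leaving out control replicate 5 for the skeletal muscle sum (0.78). The Schwann and neuronal sum passed without control replicate 3 (0.22), and the epicardial and mesothelial sum without iNICD replicate 2 (-0.39). Their unadjusted exact permutation p values were 0.00649 and 0.0260. Whether the replicate numbers pair the mice was not settled, with correlations of same-numbered deviations of -0.16 to 0.37 and 4 of 6 over 0.1. With the block on these numbers 332 genes were higher and 136 lower, *Fbxo40* was 1.34, *Ctsd*, *Akt2*, *Pik3ca* and *Inha* of the pathway genes were not called (edgeR adjusted p 0.0506 to 0.116), and 3 of 6 controls correlated best with their own number. With the block on the description numbers, *Fbxo9* and *Klhl30* were not called either (edgeR adjusted p = 0.0630 and 0.106). The counts of *Mstn*, 3 to 57 per library, limit what can be said of it.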

Other observations

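*Myog*, the gene of myogenin, a muscle factor known to switch on *Fbxo32* and *Trim63* in denervated skeletal muscle, was too low for the expression filter, and its reads lay mostly in the iNICD libraries. The controls had 0 to 3 counts, 6 in all, and the iNICD libraries 1 to 18 counts, 68 in all. The groups overlapped, with iNICD replicate 2 at 1 count. The two-sided exact permutation p was 0.00649 for this gene alone, and in edgeR's fit without the expression filter the log2 fold change was 3.28 ± 0.65 (SE, adjusted p = 0.0144). The gene was singled out after its values were seen. The other myogenic factors had 0 counts (*Myod1*), 1 count (*Myf5*) and 9 counts (*Myf6*: 4 in controls and 5 in iNICD libraries) over all 12 libraries. *Tnni2*, a fast skeletal muscle troponin gene, was likewise higher, and *Fbxo32* and *Trim63* themselves did not pass the test. *Myog* and *Tnni2* are both among the 12 skeletal muscle markers, whose sum over all libraries had an adjusted exact permutation p of 0.338. Of the 5 markers in that list that were tested by edgeR, only *Tnni2* passed, and log2 fold changes ran from -0.32 to 1.68.

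The erythroid markers, which follow the blood left in a tissue, had a lower sum in the iNICD LA, 27.1 to 138 against 59.4 to 247 normalized CPM (log2 difference -1.39), with an exact two-sided permutation p of 0.0238 and 0.143 after adjustment over 12 marker lists.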
